A study of Rattus norvegicus with 12 samples.

Results

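The mevalonate pathway enzymes Hmgcs1, Mvk, Pmvk, Mvd, Idi1 and Fdps were followed in rat liver across 3 diets. They were read by the probe sets (groups of short probes aimed at 1 transcript) of an Affymetrix rat array whose single gene symbol in the platform annotation is one of these 6 genes. That gave 8 of 31099 probe sets, for 5 of the 6 genes: 3 for Mvk, 2 for Idi1 and 1 each for Pmvk, Mvd and Fdps. No probe set carried the symbol Hmgcs1 in the annotation used here, so Hmgcs1 is not analysed here. The livers came from male Sprague Dawley rats aged 9 weeks, which had eaten a purified AIN-93G control diet, or that diet with 0.1% or 1% powder of wakame, an edible brown seaweed, for 28 days. There were 4 arrays per diet, each of 1 rat, and rats carry the numbers of the labels. Each diet was fed to 6 rats, housed 3 to a cage, and effects of cage and of diet cannot be told apart. The tests took no account of which rats shared a cage. The RNA is from whole liver, in which fewer cells of a type and less RNA per cell cannot be told apart.

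The mevalonate pathway turns acetyl-CoA into isoprenoid units, from which liver makes cholesterol, ubiquinone, dolichol and the lipid anchors of prenylated proteins. Cytosolic HMG-CoA synthase (Hmgcs1) supplies HMG-CoA, from which mevalonate is made, and the kinases Mvk and Pmvk phosphorylate mevalonate in sequence. Mvd, a decarboxylase, then forms isopentenyl diphosphate, Idi1 isomerises that to dimethylallyl diphosphate, and Fdps joins these units into farnesyl diphosphate, the branch point toward sterols. When sterols in the endoplasmic reticulum run low, the transcription factor SREBP-2 (Srebf2) is released and switches on most genes of this pathway together with those of later sterol synthesis.

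Promoter sequences are shown for Fdps and Idi1, because these transcripts varied in the data and carry the CCAAT box, the NF-Y motif that often accompanies SREBP sites. They run from 250 bases before to 50 bases after the gene start and come from RefSeq on the rat assembly GRCr8. The Fdps stretch lies at chr2:176804767-176805066 and the Idi1 stretch at chr17:66547475-66547774, both on the minus strand. Capitals mark CCAAT on either strand (ATTGG where it lies on the opposite strand).
Fdps: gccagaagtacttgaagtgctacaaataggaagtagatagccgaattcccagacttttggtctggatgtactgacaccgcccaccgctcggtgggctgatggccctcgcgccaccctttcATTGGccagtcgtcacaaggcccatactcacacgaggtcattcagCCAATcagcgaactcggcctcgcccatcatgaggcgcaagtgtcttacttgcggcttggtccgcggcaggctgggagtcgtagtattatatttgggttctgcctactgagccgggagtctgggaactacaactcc
Idi1: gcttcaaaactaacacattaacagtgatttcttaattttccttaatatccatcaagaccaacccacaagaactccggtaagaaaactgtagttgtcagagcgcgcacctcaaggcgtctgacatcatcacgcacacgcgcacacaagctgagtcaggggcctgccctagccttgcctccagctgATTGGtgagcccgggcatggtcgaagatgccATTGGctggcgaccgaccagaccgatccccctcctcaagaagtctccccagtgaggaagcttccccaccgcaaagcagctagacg
The CCAAT boxes of Fdps began 130 and 85 bases before its start. In Idi1 the boxes began 66 and 35 bases before the start. RefSeq promoters of this length were at hand for 5 of the 6 genes, all but Pmvk, and each of the 5 held at least 2 CCAAT boxes (2 in Hmgcs1, Mvd, Idi1 and Fdps and 5 in Mvk). At least 2 boxes were found in 12.2% of 21851 protein-coding promoters of the same length, and at least 1 in 38.0%. TCACNCCAC, a form of the sterol regulatory element that SREBPs bind, was searched on both strands too, was in 0 of the 5, and is in 1.03% of protein-coding promoters. Other forms of the element were not searched, so this does not show that these promoters lack an SREBP site. GGGCGG, the core of the Sp1 motif, was found in Hmgcs1, Mvk, Mvd and Fdps and in 41.8% of protein-coding promoters. No motif overlapped another in Fdps or Idi1. A match of letters is a description of the window and not a measured binding site.

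Of the 8 probe sets, 4 varied between rats and 4 were flat. Flat means that the SD (standard deviation) of the deposited log2 values across all 12 rats did not exceed 0.01, and such probe sets count as unmeasured. All 3 probe sets of Mvk and the 1 of Mvd were flat, so nothing can be said of mevalonate kinase or of the decarboxylase. The limit separated the members widely, since the least variable measured one (Idi1) had an SD of 0.347 and the most variable flat one (Mvd) an SD of 1.94e-08. Among all 31042 probe sets other than manufacturer controls, 3240 varied and 27802 were flat. The measured members were therefore Pmvk, Idi1 (2 probe sets) and Fdps.

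Pmvk, Idi1 and Fdps all lay lower in the livers of rats fed 1% wakame than in controls, by 0.41 to 0.93 log2, and none passed the test over all varying probe sets. For Pmvk and both Idi1 probe sets, every rat on the 1% diet lay below every control rat. With 0.1% wakame rat 4 had the lowest value of its diet in all 4 probe sets, and the mean of the other 3 rats was within 0.08 log2 of control for Idi1 and Fdps. The 3 transcripts varied together from rat to rat, in a relation that no longer passed its test without that rat.

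Pmvk, the kinase that makes mevalonate diphosphate, measured 9.63, 9.68, 9.16 and 9.44 log2 in control rats 1 to 4. It measured 9.10, 9.29, 9.17 and 8.42 in the rats on 0.1% wakame, and 8.39, 8.79, 8.69 and 9.10 in those on 1% wakame. The 1% livers did not overlap the controls, while 2 of the 0.1% livers (rats 2 and 3) reached the lowest control. The means were 9.48 ± 0.24 in control, 9.00 ± 0.39 with 0.1% and 8.74 ± 0.29 with 1% wakame (SD, n = 4). The difference of 1% wakame from control was −0.73 ± 0.21 log2 (SE, 95% interval −1.20 to −0.27, limma with Benjamini-Hochberg adjusted p = 0.105), or 39.9% lower on the linear scale. That of 0.1% wakame from control was −0.48 ± 0.21 (limma adjusted p = 0.421). Pmvk had the smallest unadjusted p of the 4 probe sets in both (0.00534 and 0.0441), and in the F-test over the 3 diets (0.0159, limma adjusted p = 0.224). In that F-test 0 of the 4 passed and 1, Pmvk, had an unadjusted p under 0.05, against 0.185% and 14.2% of varying probe sets.

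Idi1, the isomerase, was read by a brighter and a dimmer probe set. The brighter one measured 9.33, 8.99, 8.59 and 9.02 log2 in control rats 1 to 4, then 8.59, 8.96, 9.22 and 7.63 with 0.1% wakame. With 1% wakame it measured 8.15, 7.97, 8.42 and 8.45, all below the lowest control. The 0.1% livers reached from within the control range to below it, and rat 4 had the lowest value of all 12 rats. The means were 8.98 ± 0.30, 8.60 ± 0.70 and 8.25 ± 0.23 in control, 0.1% and 1% wakame (SD, n = 4). The difference of 1% wakame from control was −0.73 ± 0.30 log2 (95% interval −1.40 to −0.07, limma unadjusted p = 0.0343, adjusted p = 0.236).

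The dimmer Idi1 probe set measured 8.21, 7.91, 7.78 and 7.95 log2 in control rats and 7.61, 7.98, 8.33 and 7.12 in rats on 0.1% wakame. With 1% wakame it measured 7.54, 7.32, 7.74 and 7.64, again all below the lowest control. Its difference of 1% wakame from control was −0.41 ± 0.22 (95% interval −0.90 to 0.08, limma adjusted p = 0.353), so the size for Idi1 depended on the probe set, 39.9% lower by one and 24.6% lower by the other. Both probe sets put the rats in nearly the same order (Pearson r = 0.967 within diets).

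Fdps, farnesyl diphosphate synthase, measured 12.07, 11.88, 11.79 and 11.99 log2 in control rats 1 to 4 and 11.87, 11.94, 11.76 and 9.58 in rats on 0.1% wakame. With 1% wakame it measured 10.34, 10.36, 11.45 and 11.85. The controls lay within a narrow band that 3 of the 0.1% livers and 1 of the 1% livers shared or nearly touched, and 3 rats stood far below it, namely rat 4 on 0.1% and rats 1 and 2 on 1% wakame. The SD was 0.12 in control, 1.14 with 0.1% and 0.77 with 1% wakame (n = 4). The means were 11.93, 11.29 and 11.00. The difference of 1% wakame from control was −0.93 ± 0.52 log2 (95% interval −2.09 to 0.22, limma adjusted p = 0.370), the largest difference among the members and the one with the largest SE.

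**Figure D1:**
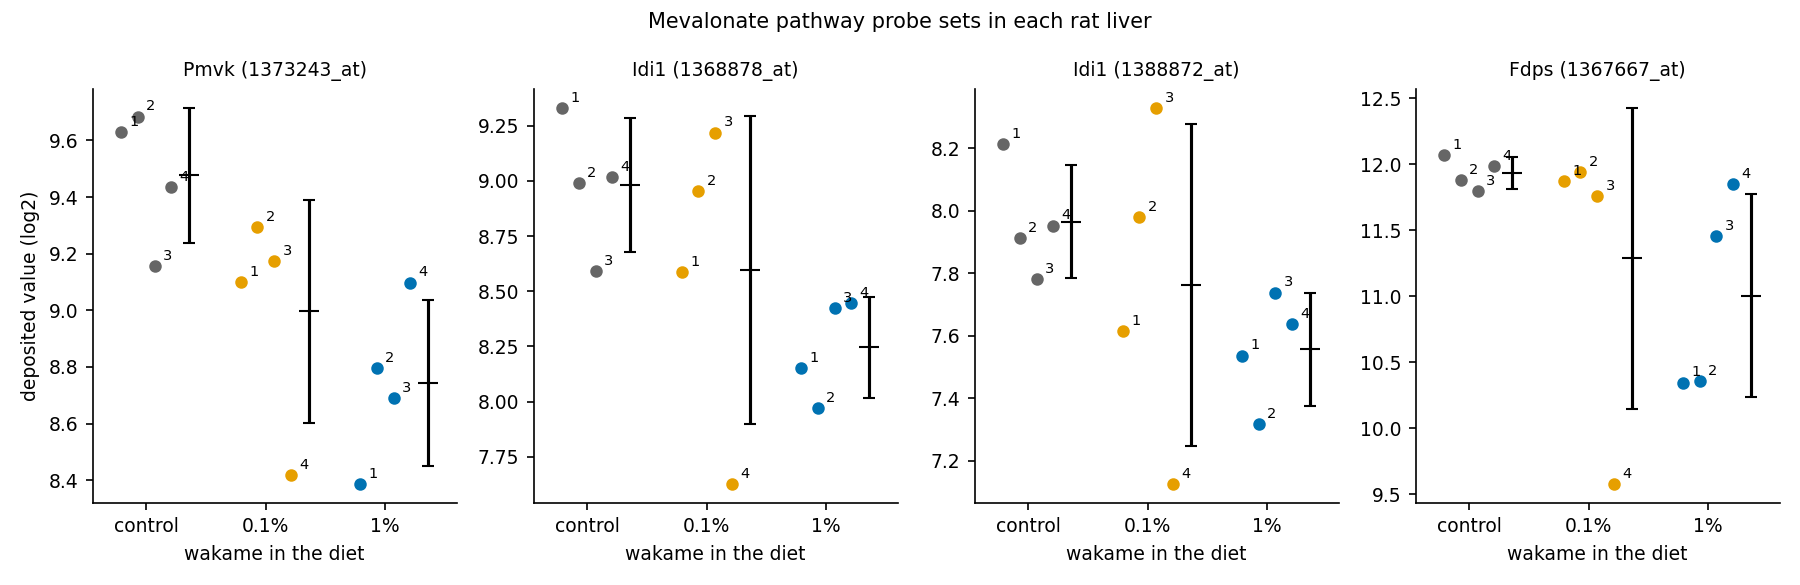
Deposited log2 value (y axis) of each varying probe set of Pmvk, Idi1 and Fdps in each liver by diet (x axis). Points are rats with their number, black bars are mean ± SD (n = 4). The 1% points lie below all control points for Pmvk and both Idi1 probe sets, and rat 4 on 0.1% wakame is the lowest of 12 for both Idi1 probe sets and Fdps.

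For 1% wakame against control, 0 of the 4 member probe sets passed the limma test at an adjusted p under 0.05, against 1.67% of the 3240 varying probe sets (54). All 4 lay lower, as did 55.1% of all. At an unadjusted p under 0.05, 2 of the 4 passed, both lower, against 10.1% of all varying probe sets that did so on the lower side and 18.5% in either direction. That count was 1 without control rat 1, 2 or 4 or rat 1 or 2 of the 1% diet, 3 without rat 3 of the 0.1% or rat 4 of the 1% diet, and 4 without rat 4 of the 0.1% diet. The diets did not overlap, with 1% wakame lower, in 3 of the 4 member probe sets and in 6.05% of all. By gene, with the brighter probe set of Idi1, the median difference was −0.73 log2 over the 3 measured genes and −0.02 over all varying probe sets. Since the members were chosen with earlier results of these data known, these counts describe the members and carry no test of their own.

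For 0.1% wakame against control, 0 of 4 passed (limma, background 0.0617%) and 1 of 4, Pmvk, had an unadjusted p under 0.05 on the lower side (background 6.73%, and 11.5% in either direction). All 4 lay lower, as did 55.9% of varying probe sets. Idi1 was at −0.38 ± 0.30 by the brighter and −0.20 ± 0.22 log2 by the dimmer probe set, and Fdps at −0.65 ± 0.52, with limma adjusted p from 0.690 to 0.803. No member probe set was free of overlap between these diets, against 3.36% of varying probe sets with 0.1% wakame lower. Rat 4 of the 0.1% diet carried most of the difference in Idi1 and Fdps and part of that in Pmvk. Without it Fdps was at −0.08, Idi1 at −0.06 and 0.01, and Pmvk at −0.29 log2 (limma adjusted p from 0.801 to 0.995). The comparison of 1% wakame with 0.1% wakame shares these livers. There 0 of 4 passed (limma) and 0 had an unadjusted p under 0.05, with differences of −0.25 ± 0.21 (Pmvk), −0.35 ± 0.30 and −0.21 ± 0.22 (Idi1) and −0.28 ± 0.52 (Fdps), and 0% of varying probe sets passed. An unadjusted p under 0.05 on the lower side was found in 3.06% of varying probe sets (6.76% in either direction), and 51.0% lay below 0. The diets overlapped in all 4, against 1.94% without overlap and lower with 1% wakame. Without rat 4 of the 0.1% diet the differences were −0.45 (Pmvk), −0.67 and −0.42 (Idi1) and −0.85 (Fdps), each with an unadjusted limma p under 0.05 (0.00818 to 0.0378) and none past the threshold (lowest adjusted p = 0.442). The shares above are of the fit to all 12 rats, and none is given for this fit. This rat was singled out after the member values had been seen, so these p describe the members only.

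**Figure D2:**
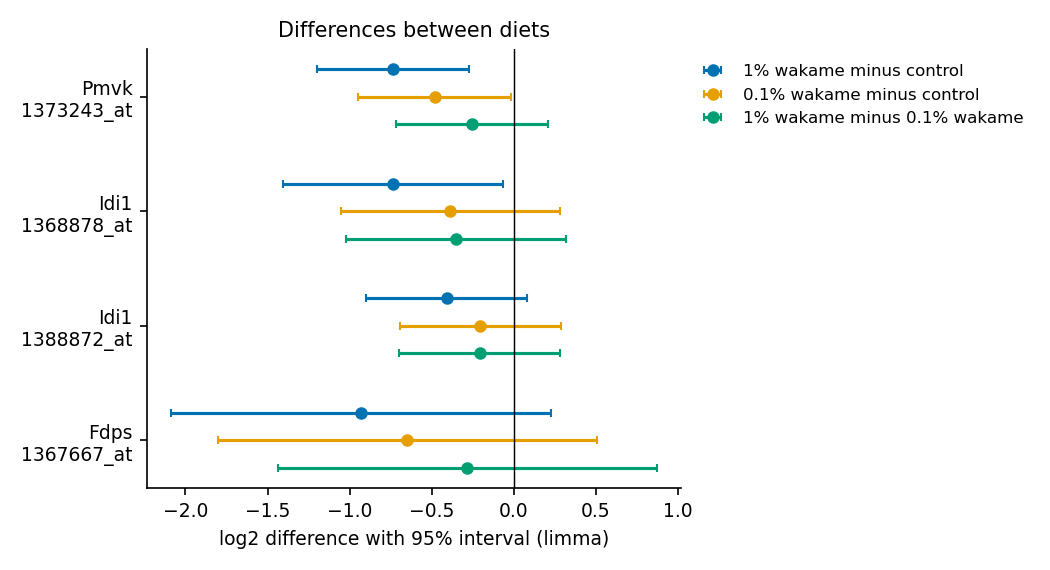
Log2 difference between diets (x axis) with its 95% interval from limma for each varying probe set (y axis), in 3 comparisons. All 12 differences are below 0 in this fit (2 of those between 1% and 0.1% wakame turn in sign with the Gapdh difference as a covariate), and the interval excludes 0 for Pmvk in both comparisons with control and for the brighter Idi1 probe set with 1% wakame, before adjustment for the number of probe sets tested.

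In all 4 probe sets the mean was highest in control, between with 0.1% and lowest with 1% wakame, an order that 26.0% of varying probe sets share. Rat 4 of the 0.1% diet entered into this order. Over the other 3 rats of that diet the Fdps mean was 11.85 ± 0.09 and the Idi1 mean 8.92 ± 0.32 (SD, n = 3), against 11.93 and 8.98 in control, and the dimmer Idi1 probe set was at 7.98, against 7.96 in control. Pmvk was at 9.19 ± 0.10 over these 3 rats, against 9.48 in control. Rat 4 minus the mean of those 3 rats was −2.28 log2 in Fdps, −1.29 and −0.85 in Idi1 and −0.77 in Pmvk. The mean correlation of its array with the others of its diet over varying probe sets was 0.927, where the 4 arrays of that diet ranged from 0.924 to 0.942. Its lowest, 0.911 with rat 2, was the lowest of any pair of arrays of 1 diet.

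A sign of RNA quality, the log2 value of Gapdh at its 3-prime end minus that at its 5-prime end, moved partly with these values. It was 1.07, 1.04, 1.05 and 1.05 in control rats 1 to 4, 1.20, 1.07, 0.96 and 1.10 with 0.1% and 1.22, 1.42, 1.17 and 1.04 with 1% wakame. The 2 rats on 1% wakame with the lowest Fdps, rats 1 and 2, had the 2 highest values, while rat 1 on 0.1% wakame had a high value with Fdps near control. With this difference added to the fit, 1% wakame minus control was −0.63 for Pmvk, −0.45 and −0.16 for Idi1 and −0.44 for Fdps, and none passed (limma, lowest adjusted p = 0.385). The differences of 1% wakame from 0.1% wakame were then −0.17 for Pmvk, −0.11 and 0.00134 for Idi1 and 0.12 for Fdps, so 2 of the 4 turned in sign. Its part in the result was not tested beyond this fit.

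Pmvk, Idi1 and Fdps varied together among rats of the same diet. With each value centred on its diet mean (12 rats, 4 pairs of probe sets, exact two-sided permutation within diets), Fdps and Idi1 had Pearson r = 0.843 (p = 0.00817, adjusted over the 4 pairs p = 0.0163) and Spearman rho = 0.783 (p = 0.00434, adjusted p = 0.00868). Fdps and Pmvk had r = 0.820 (exact permutation p = 0.0221, adjusted p = 0.0221) and rho = 0.783 (p = 0.0161, adjusted p = 0.0161). Idi1 and Pmvk had r = 0.798 (exact permutation p = 0.0148, adjusted p = 0.0198) and rho = 0.734 (p = 0.0138, adjusted p = 0.0161). The fourth pair, the 2 probe sets of Idi1, had r = 0.967 and rho = 0.958 (exact permutation p = 2.17e-04 and 1.45e-04, adjusted p = 8.68e-04 and 5.79e-04). That pair reads a single gene, and counting it in the adjustment can lower the adjusted p of the pairs between genes.

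The relations between genes did not pass the test without rat 4 of the 0.1% diet, though r stayed above 0. Without it the 3 values of r were 0.521, 0.594 and 0.541 (11 rats, exact permutation p = 0.0651, 0.176 and 0.111). Without the 2 rats farthest from the median of the first gene they were 0.540, 0.383 and 0.490 (10 rats, exact permutation p = 0.0637, 0.490 and 0.179), again above 0 and not past the threshold. The 2 probe sets of Idi1 kept r = 0.922 without the 2 farthest rats (exact permutation p = 0.00347). Fdps and Pmvk both lie on chromosome 2, with 26 protein-coding genes between them in the order of the GRCr8 assembly, and Idi1 lies on chromosome 17.

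**Figure D3:**
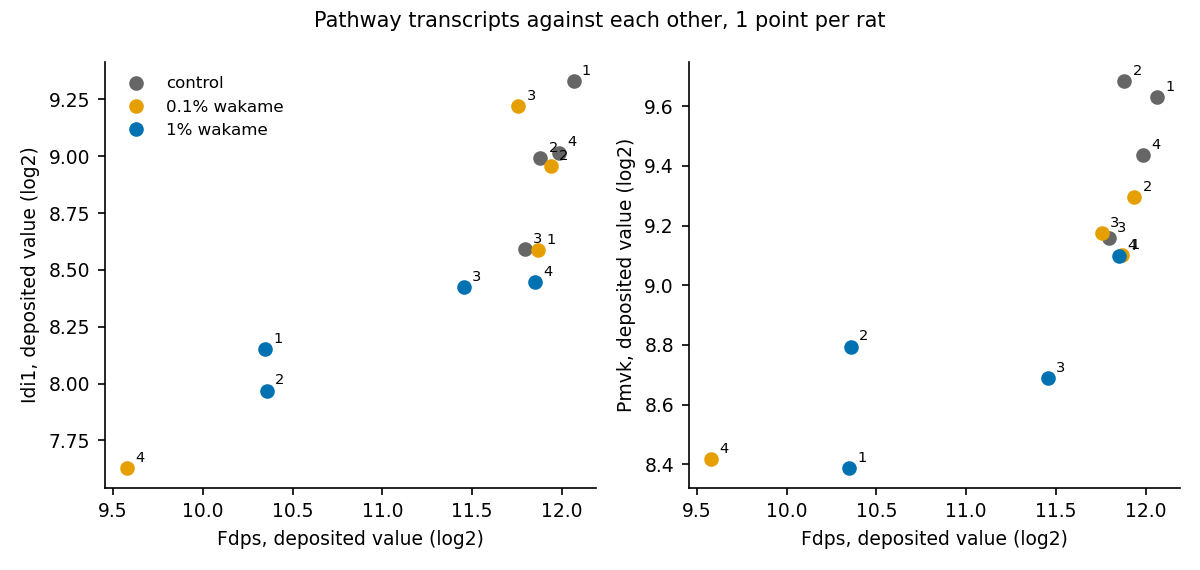
Deposited log2 value of Idi1 (brighter probe set, left) and Pmvk (right) on the y axes against Fdps on the x axes, 1 point per rat with its number, coloured by diet. Rat 4 on 0.1% and rats 1 and 2 on 1% wakame sit at the low end of Fdps, and the other 9 rats lie between 11.45 and 12.07 on the Fdps axis.

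The genes most like the members were ranked by the Pearson correlation over the 12 arrays with the mean of Pmvk, Idi1 and Fdps, among 2298 other genes with a varying probe set. The 8 highest were Msmo1, sterol methyl oxidase (r = 0.969), Sqle, squalene epoxidase (0.944), and Acat2, the cytosolic thiolase that makes acetoacetyl-CoA for the pathway (0.942). They went on with Pnpla3, a lipid hydrolase (0.936), Tubb2a, a tubulin (0.933), Cyp51, lanosterol demethylase (0.928), Fabp5, a fatty acid binding protein (0.927), and Xpc, a DNA damage sensor (0.924). Thus 4 of the 8 belong to cholesterol synthesis, and the share of such genes among the 2298 is not given. Pnpla3, not of that pathway, had the largest difference of the 8 for 1% wakame minus control, at −5.22 log2 (limma adjusted p = 0.0856). All these arrays share the diets, so the values of r describe the likeness and are given with no p. The liver with the lowest member mean is among them, and no ranking without it is given.

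All 10 measured genes of the steps from squalene to cholesterol had r over 0.5 with the member mean, with a median of 0.810, against 15.8% and a median of 0.056 over all 3240 varying probe sets. Rat 4 of the 0.1% diet had the lowest centred member mean of any rat, at −1.16, followed by −0.74 in rat 1 on 1% wakame. No r with the member mean is given without that lowest rat, so how far the likeness rests on it was not tested. The lowest were Tm7sf2 (0.527) and Ebp (0.542), both sterol-modifying enzymes. In all 10 genes rat 4 was the lowest of the 0.1% diet, as in all 4 member probe sets, against 24.0% of varying probe sets. In the list of other SREBP-2 targets and genes of cholesterol uptake it was the lowest of its diet in 2 of 7. Rats 1 and 2 on 1% wakame both lay below rats 3 and 4 of that diet in 7 of the 10 and in 3 of the 4 member probe sets, against 20.6% of all. In the list of other SREBP-2 targets and genes of cholesterol uptake they did so in 4 of 7. The counts for rat 4 and for rats 1 and 2 were both chosen after the member values had been seen.

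**Figure D4:**
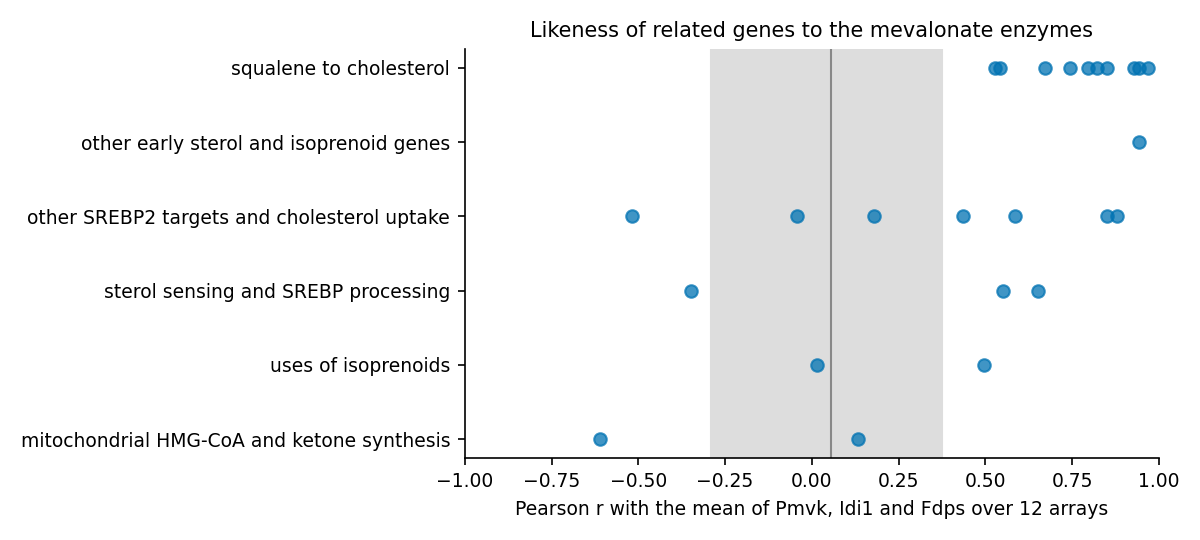
Pearson r (x axis) of each related gene with the mean of Pmvk, Idi1 and Fdps over 12 arrays, 1 point per gene, in rows by gene list. The grey band holds the middle of all varying probe sets (quartiles −0.291 to 0.375) and the grey line is their median. The 10 genes from squalene to cholesterol lie to the right of the band. The arrays include the liver with the lowest member mean, and no r without it is shown.

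The neighbouring steps of the pathway lay lower too, and none passed. Acat2, the first step, was the 1 varying gene of 5 in the list of other early genes, at −0.63 ± 0.31 log2 for 1% wakame minus control (limma adjusted p = 0.310). From squalene to cholesterol 10 of 10 measured genes lay lower with 1% wakame, with a median of −0.47, against 55.1% and −0.02 over all varying probe sets. None of the 10 passed, and 1 had an unadjusted p under 0.05, near the 10.1% of all varying probe sets on the lower side (limma). Sqle was at −0.66 ± 0.29, Msmo1 at −0.73 ± 0.37, Dhcr7, the last reductase, at −0.69 ± 0.35 and Hsd17b7, a sterol ketoreductase, at −0.43 ± 0.21. The 1% and control diets did not overlap in 3 of the 10, Sqle, Msmo1 and Lss (lanosterol synthase), with 1% wakame lower, against 6.05% of varying probe sets. For 0.1% wakame 9 of 10 lay lower, with a median of −0.24, against 55.9% and −0.02 over all varying probe sets. Rat 4, the lowest of the 0.1% diet in all 10, entered into these differences. For this diet 0 of the 10 passed or had an unadjusted p under 0.05 (limma), against 0.0617% and 11.5% of all varying probe sets.

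**Figure D5:**
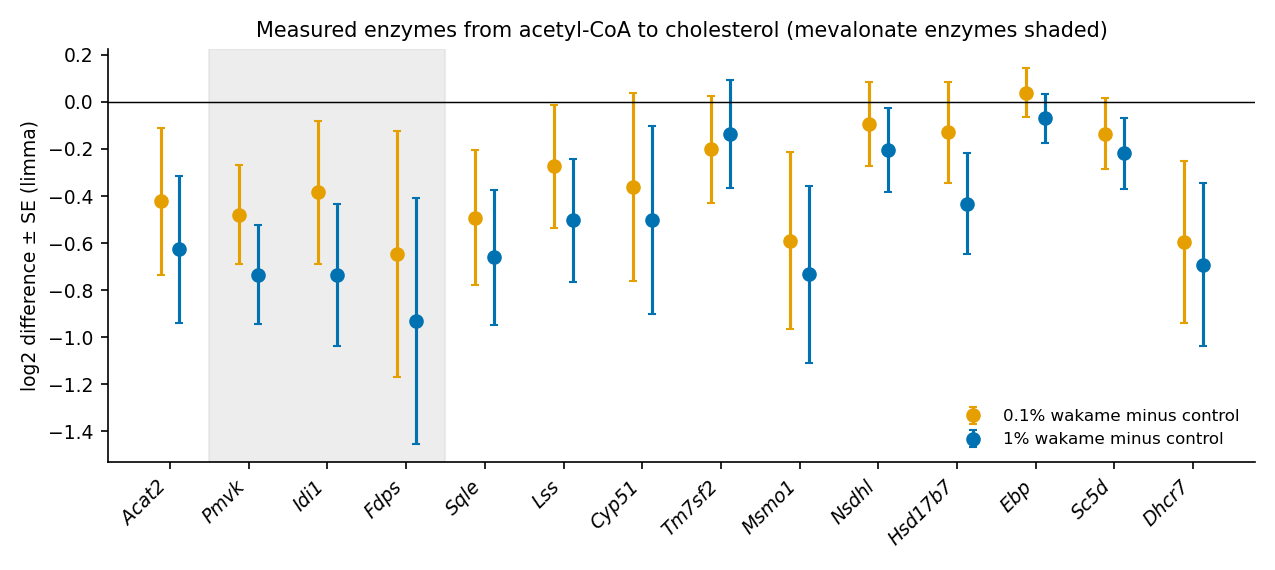
Log2 difference from control ± SE (y axis, limma, n = 4 per diet) of the measured enzymes from acetyl-CoA to cholesterol (x axis) for 0.1% and 1% wakame. The shaded members Pmvk, Idi1 and Fdps lie at −0.73, −0.73 and −0.93 with 1% wakame, and Ebp and Tm7sf2 lie closest to 0 at that dose.

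Genes that govern the pathway gave fewer measured values. Srebf2, which encodes SREBP-2, was flat. Of 14 genes of sterol sensing and SREBP processing 3 varied and 0 passed in any comparison (limma, lowest adjusted p = 0.165). Insig1, which holds SREBPs back in the endoplasmic reticulum and is itself an SREBP target, measured 11.23, 12.07, 11.88 and 11.24 log2 in control rats, 12.72, 11.93, 11.61 and 10.91 with 0.1% and 9.99, 9.79, 11.06 and 12.03 with 1% wakame. Rats 1 and 2 on 1% wakame had its lowest values, and its r with the member mean was 0.651. Srebf1, which mainly drives fatty acid synthesis, was at −1.07 ± 0.37 for 1% wakame minus control (limma adjusted p = 0.165) and Insig2 at 0.06 ± 0.08.

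Among other SREBP-2 targets and genes of cholesterol uptake 7 of 13 varied, 5 lay lower with 1% wakame, against 55.1% of all varying probe sets. None of the 7 passed, and 2 had an unadjusted p under 0.05, against 18.5% of all (limma). Their r with the member mean was over 0.5 in 3 of 7, with a median of 0.435. Acly, which makes cytosolic acetyl-CoA from citrate, was at −2.10 ± 0.74 (limma adjusted p = 0.180) with r = 0.879 to the member mean, and Acss2, which makes it from acetate, at −0.67 ± 0.24 with r = 0.849. Tmem97, a sterol-regulated membrane protein, was at −0.42 ± 0.26. Lpin1, a phosphatidate phosphatase, ran the other way, at 1.04 ± 0.58 with 1% and 1.91 ± 0.58 with 0.1% wakame (limma adjusted p = 0.367 and 0.228) and r = −0.519. Of 21 genes that use isoprenoids 2 varied, Dolk (dolichol kinase) at −0.01 ± 0.04 and Pggt1b (a prenyltransferase subunit) at −0.01 ± 0.10. The mitochondrial genes Acat1 and Bdh1, of ketone metabolism, were at −0.26 ± 0.18 and 0.07 ± 0.10 with r of 0.132 and −0.610.

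Marker genes of liver cell types overlapped between 1% wakame and control in every list with a measured gene. The mean log2 level of 6 measured hepatocyte markers (of 10) ran from 11.83 to 12.40 with 1% wakame and from 11.96 to 12.38 in control. That of 5 macrophage markers (of 10) ran from 8.66 to 9.12 with 1% wakame and from 8.58 to 9.17 in control, and that of 5 stellate cell and fibroblast markers (of 11) from 8.24 to 8.81 with 1% wakame and from 8.21 to 8.58 in control. Endothelial markers (2 of 9) ran from 9.11 to 9.38 with 1% wakame and from 9.04 to 9.35 in control, and the adipocyte marker (1 of 5) from 7.60 to 8.33 with 1% wakame and from 7.22 to 7.93 in control. Erythroid and lymphocyte markers (3 of 6) ran from 8.18 to 9.14 with 1% wakame and from 8.32 to 8.88 in control, and the 6 cholangiocyte markers had no varying probe set. No marker passed and 1, Colec11 of stellate cells, had an unadjusted p under 0.05 (limma), against 1.67% and 18.5% of varying probe sets. All 5 stellate cell and fibroblast markers lay higher with 1% wakame than in control, with a median difference of 0.21 log2 against −0.02 over all varying probe sets, as did 4 of 5 macrophage and 2 of 2 endothelial markers. The part of these cells in the member values was not tested. Colec11 was at 0.21 ± 0.09 log2 for 1% wakame minus control and Lum, of fibroblasts, at 0.65 ± 0.31. The hepatocyte enzymes Tat and Cyp2e1 were at −1.04 ± 0.48 and 0.67 ± 0.35, and the macrophage receptors Cd14 and Csf1r at 0.35 ± 0.29 and 0.10 ± 0.17. Stab2 and Lyve1 (endothelium), Cfd (fat) and Alas2 and Hbb (red cells) lay between 0.01 and 0.16. Rat 4 on 0.1% wakame was at 12.61 for the hepatocyte and 9.20 for the macrophage markers, the highest of its diet in both.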

How the data were processed

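Liver RNA of 12 rats was measured, 1 Affymetrix rat array per rat and 4 arrays per diet. Per the labels' protocols, 100 ng of total RNA was copied into biotinylated cRNA with a 3-prime kit. The authors deposited 1 table of log2 values for 31099 probe sets. That they are log2 was read from their range (3.15 to 14.6). The submitters' processing notes name R 2.7.2. How background was corrected and arrays were normalized and summarised is not stated in these sources, and no detection call stands behind a value. How the flat values arose is unknown. The number of arrays limits the precision.

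Gene symbols came from the platform annotation (20832 probe sets with 1 symbol, 436 with several, 9831 with none). Genes of the lists were matched by identifier to RefSeq genes of GRCr8. limma 3.58.1 in R 4.3.3 fitted 1 mean per diet to all 12 arrays over the 3240 varying probe sets, with a variance trend, and Benjamini-Hochberg adjustment over them at a threshold of 0.05. The script was tested on simulated data. Every probe set of the members is named. From each other list up to 4 genes (2 from marker lists) with the smallest unadjusted p for 1% wakame minus control are named, with Srebf2, Insig1 and Sqle by name and the 8 genes most like the members. Lss, Ebp and Tm7sf2 were named after their values were seen. The members and lists were chosen with earlier results of these data known. The other settings tried were all probe sets, an SD limit of 0.05, no trend, dim probe sets left out, arrays centred on the median of varying probe sets, 1 probe set per gene, a replicate block, the Gapdh difference as a covariate, and each array left out in turn.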

Additional observations from a re-analysis of the deposited data

Results flagged for a closer look

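In groups of 4 rats, the gap of the highest or lowest rat to its nearest neighbour, divided by the range, was compared with Dixon's 95% critical value. Chance passes about 1 group in 20, and 6 of 111 groups passed, so their number is near what chance gives. Among the members, Fdps in rat 4 on 0.1% wakame passed, at 9.58 log2 where the next lowest rat of that diet had 11.76 (ratio 0.923). The same rat passed for Msmo1, at 8.05 where the next had 9.42, and for Xpc, at 8.43 where the next had 9.13. Both are among the 8 genes most like the members, and this rat had the lowest member mean in that ranking. Their flags are therefore not independent of that of Fdps. Acss2 in rat 4 on 1% wakame was at 10.10, where the next highest had 9.72. Hsd17b7 in control rat 1 was at 8.33 where the next highest had 7.68, and Acly in control rat 2 was at 13.50 where the next highest had 12.47.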

How the results depend on the processing

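None of the 4 member probe sets passed in any comparison, or in the F-test, under any of the 20 other settings (limma). For 1% wakame minus control all differences stayed below 0 in every setting. The lowest adjusted p was 0.0562, for Pmvk without rat 4 of the 0.1% diet, where the brighter Idi1 probe set had 0.0790. With each array left out, the difference ran from −0.85 to −0.62 for Pmvk, −0.87 to −0.62 and −0.47 to −0.32 for Idi1, and −1.21 to −0.71 for Fdps. Only 3 differences changed sign. For 0.1% wakame minus control the dimmer Idi1 probe set ran from −0.39 (without rat 3 of the 0.1% diet) to 0.0104 (without rat 4). With the Gapdh covariate it was at 0.00134 and Fdps at 0.123 for 1% minus 0.1% wakame. The cause of these changes was not tested.

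The background count for 1% wakame minus control, 54, was 9 over all probe sets, 26 with 1 probe set per gene, 12 with the replicate block and 4 with the Gapdh covariate, and ran from 7 to 49 with each array left out. It was 7 without rat 2, 34 without rat 3 and 11 without rat 4 of the 1% diet, 28 without rat 1 of the 0.1% diet, and 13, 8, 33 and 9 without control rats 1 to 4. For 0.1% minus control it was 2, and 5, 2, 0 and 2 in those settings, 1 with arrays centred, and 0 to 8 with an array left out. For 1% minus 0.1% it was 0 (219 with an unadjusted p under 0.05), 6 over all probe sets and 1 without rat 1 of the 0.1% diet. In the F-test it was 6, and 12, 7, 1 and 2 in those settings, and 2 to 19 with an array left out. Between rats with the same number, the correlations of their deviations from the diet means ran from −0.115 to 0.0924. Between rats of different diets and different numbers they ran from −0.169 to 0.257. No pairing by number was seen, and it was not tested. With the replicate block Pmvk had an adjusted p of 0.192 (limma) for 1% wakame minus control, and 1 member probe set had an unadjusted p under 0.05, as with the Gapdh covariate. The share of all varying probe sets with such a p is not given for these fits. With 4 arrays per diet, the 95% interval of Fdps for 1% wakame minus control spans over 2 log2. The fit pools the spread over the 3 diets. Without rat 4 of the 0.1% diet this difference stayed at −0.93, and its SE was 0.31 rather than 0.52.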
